A study of Mus musculus with 185 samples.

Results

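Elastic fibres are built from a core of elastin laid down on a scaffold of fibrillin microfibrils, and 10 genes of this structure were followed through single cells of the mouse heart. The genes were chosen by name, from the 17171 genes of the deposited table: Eln, which encodes elastin, Fbn1, which encodes fibrillin-1, the microfibril-associated genes Mfap2, Mfap4 and Mfap5, the fibulin genes Fbln1, Fbln2 and Fbln5, Emilin1, which encodes a glycoprotein of the elastin and microfibril interface, and Efemp2, which encodes fibulin-4. All 10 were listed in the table, and all 10 were above 5 TPM in at least 20% of the cells. TPM is a transcript abundance scaled by transcript length and to the same total in each cell.

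Elastin is secreted as the soluble monomer tropoelastin, which gathers at the cell surface, is carried to microfibrils by fibulins and is cross-linked there by enzymes of the lysyl oxidase family. Microfibrils also hold latent TGF-β through its binding proteins, so that they store a growth factor as well as giving tissue its recoil. In the heart, fibroblasts lay down this matrix, and after infarction the fibroblasts that enter the scar as myofibroblasts express Postn, the gene of periostin.

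Cells came from hearts of adult mice of about 5 months, which the labels give as C57BL/6 after 6 rounds of backcrossing, whereas the methods name C57Bl/6J and fewer rounds for the Postn line. They were sorted as negative for the endothelial marker CD31 and the leukocyte marker CD45, and captured singly on the Fluidigm C1 system in 4 captures named Jul24, Jul29, Nov4 and Nov11. Infarct cells were taken a week after myocardial infarction (MI), produced by permanent ligation of the left coronary artery. Lineage-traced cells carried eGFP from the Rosa26 locus (R26-eGFP), switched on by a MerCreMer (MCM) recombinase that tamoxifen, given in chow, activates, and which was placed in 1 allele of Postn or of Tcf21, a transcription factor gene of resident fibroblasts.

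The infarct classes were 27 Postn-traced cells (Postn MCM/+; R26-eGFP) and 24 Postn-negative cells, both of capture Jul29, 44 Tcf21-traced cells (Tcf21 MCM/+; R26-eGFP) of capture Nov4, 28 Postn-positive cells that the labels do not call traced (6 of Jul29, 19 of Nov4 and 3 of Nov11), and 29 untraced cells from the scar, of Nov11. The resident classes, all of capture Jul24, were 12 Postn-negative cells, 17 Tcf21-traced cells labelled as uninjured, 3 Tcf21-positive Postn-positive cells and 1 Postn-positive cell. The untraced cells have no genotype in the labels, and since Cre recombination is not complete, a cell without eGFP can still express Postn. The sources differ on whether the resident cells came from uninjured or sham hearts or, for some, from a region remote from the infarct. The study names several mice for each group, but no label ties a cell to its mouse, so that the cells of a class could not be divided by animal and a class was taken as a single sample. Differences between classes have no replicate check and were not tested, and every SD describes the spread between cells.

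The classes were checked against Postn and against markers of cell types. Postn was above 5 TPM in all 27 Postn-traced cells, in 39 of 44 Tcf21-traced and 24 of 29 untraced scar cells of the infarct, and in 3 of 24 Postn-negative infarct cells, where its highest value was 4.41 log2(TPM+1). Of 6 fibroblast markers (Col1a1, Col1a2, Col3a1, Pdgfra, Tcf21 and Dcn), at least 3 were detected in every cell of the infarct classes except for 4 of the 29 untraced scar cells, and in every resident cell except for 1 of the 12 Postn-negative ones. Dcn was the most abundant of them in every class, with a mean of 15879 TPM in Postn-negative and 9271 TPM in Postn-traced cells. The labels call all cells fibroblasts. Of the 3 markers that are not collagen genes, Dcn was detected in every cell, while at least 2 of the 3 were detected in 17 of 29 untraced scar, 17 of 28 Postn-positive, 40 of 44 infarct Tcf21-traced, 25 of 27 Postn-traced and all 24 infarct Postn-negative cells. At least 3 smooth muscle markers were detected in 21 cells. In 6 cells, at least 3 markers of pericytes, endothelial, myeloid, cardiomyocyte or epicardial cells were detected, 2 with pericyte, 2 with myeloid, 1 with cardiomyocyte and 1 with epicardial markers.

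The read depth of a cell cannot be read from TPM, and the number of genes above 5 TPM was used in its place. It ran from 1809 to 4881 (median 2342) in Postn-negative infarct cells and from 2155 to 4541 (median 3643) in Postn-traced cells of the same capture. Among the 29 untraced scar cells it ran from 141 to 4394, and 6 of them fell short of 50% of their capture's median. Of these 6, 5 stood apart at 141 to 264 genes, and the other, at 1560, was next to the rest of the class. The comparison and the class order of the untraced scar cells are given with and without the 6 cells. Zeros were read as values listed at 0, because genes used by nearly every cell, such as Gapdh, were also listed at 0 in up to 9 of all cells.

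The genes lie apart in the genome, on 8 chromosomes. In RefSeq coordinates of GRCm38, Eln (chr5:134702595-134747368) and Emilin1 (chr5:30913387-30921279) share chromosome 5, far from each other, and Fbln2 (chr6:91212460-91272540) and Mfap5 (chr6:122513584-122529290) share chromosome 6. Fbn1 spans chr2:125300594-125506485, Mfap2 chr4:141010424-141015976, Mfap4 chr11:61485431-61488708, Fbln5 chr12:101746565-101819119, Fbln1 chr15:85205949-85286294 and Efemp2 chr19:5473946-5482520. Eln overlaps 1 other annotated gene, the long non-coding RNA gene Gm30003, so its reads and those of that gene cannot be told apart without strand.

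**Figure D1:**
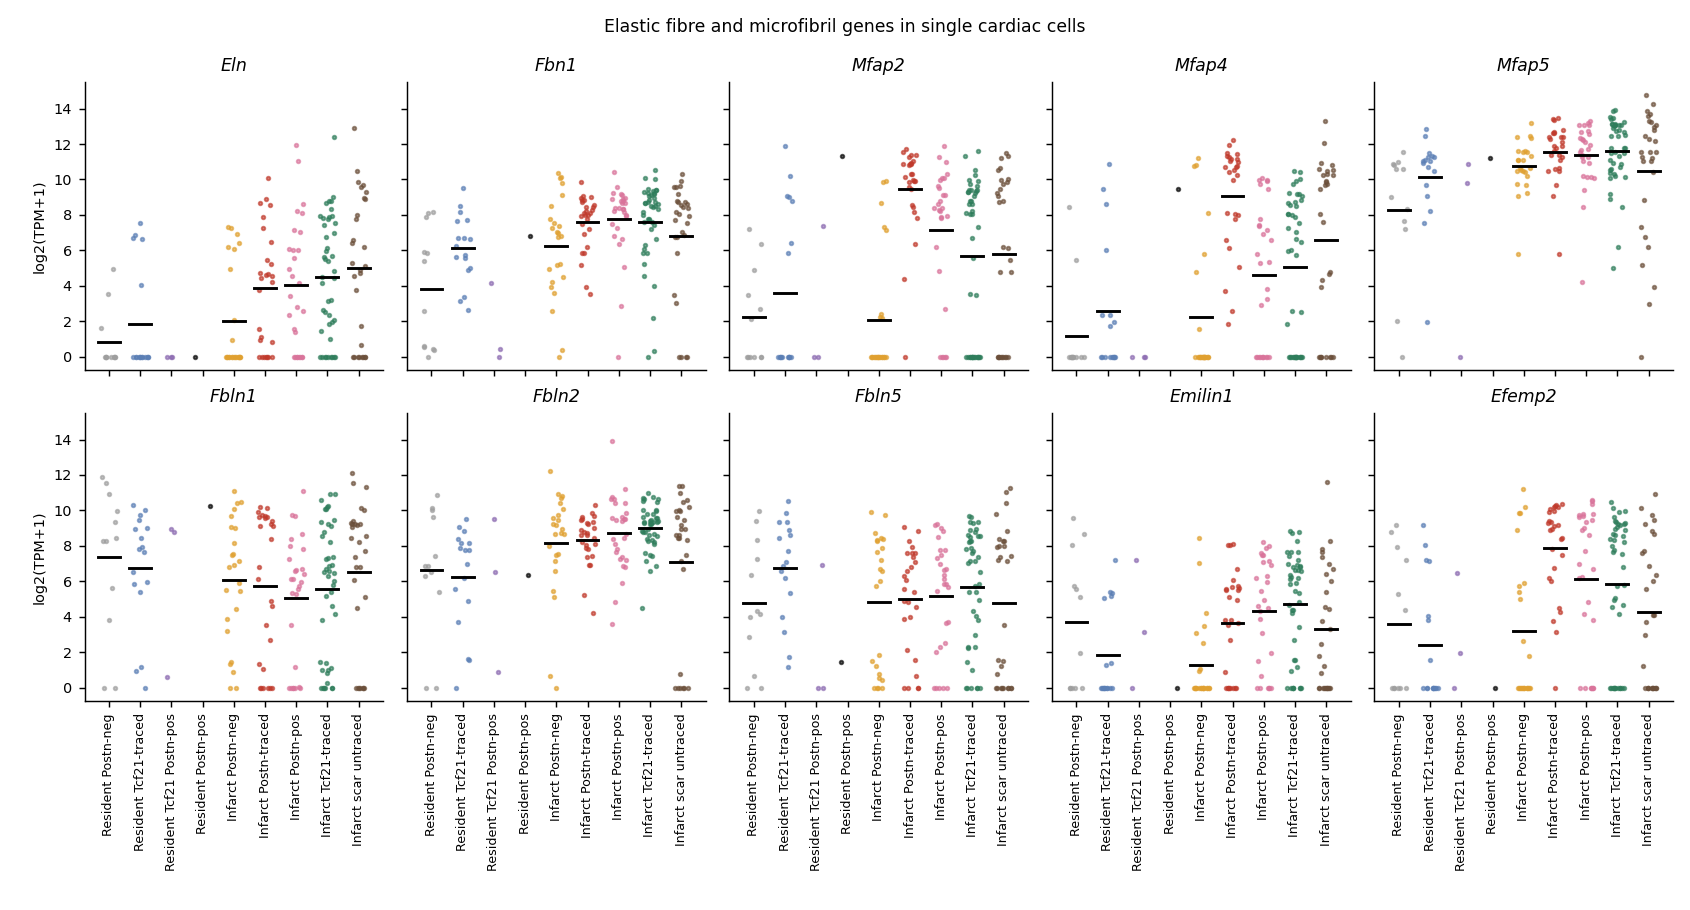
Level of each of the 10 genes in log2(TPM+1) (vertical axis) in every cell (points) of the 9 classes (horizontal axis), with the class mean as a black bar for classes of more than 3 cells. Mfap5 is high in nearly every cell, whereas Mfap2, Mfap4 and Efemp2 divide into cells near 0 and cells near 10 log2 units, with few near 0 among the 27 Postn-traced cells.

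The first comparison asked how the genes differed between infarct cells with a history of Postn expression and Postn-negative cells of the same capture. The small microfibril genes Mfap2 and Mfap4 and the fibulin-4 gene Efemp2 were far higher in the Postn-traced cells, by 7.40, 6.87 and 4.67 log2 units in class mean. When TPM was averaged over cells before the logarithm was taken, called the mean of TPM from here on, the same genes differed by 3.59, 2.48 and 1.09 log2 units. Emilin1, Eln and Fbn1 were also more than 1 log2 unit higher. The fibulin genes Fbln1, Fbln2 and Fbln5 and the abundant Mfap5 lay within 1 log2 unit.

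Eln, the gene of the elastic core, ran from 0 to 7.33 with a median of 0 log2(TPM+1) in the 24 Postn-negative cells and from 0 to 10.07 with a median of 4.46 in the 27 Postn-traced cells. Cells of both classes were listed at 0, and the classes overlapped over most of their range. Eln was detected, meaning above 5 TPM, in 7 of 24 cells (29.2%, interval 12.6% to 51.1%) and 16 of 27 cells (59.3%, interval 38.8% to 77.6%), with exact 95% Clopper-Pearson intervals that cover counting error only. The means of 2.01 ± 2.98 and 3.85 ± 3.32 (SD between cells) differed by 1.84 log2 units, less than the spread in either class.

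Fbn1, the gene of the main microfibril protein, ran from 0 to 10.34 with a median of 6.91 in Postn-negative cells and from 3.55 to 9.83 with a median of 8.08 in Postn-traced cells. Most cells of both classes held it, and the traced cells had a narrower spread within the range of the others. The means differed by 1.34 log2 units, and by 0.0255 on the mean of TPM.

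Mfap2 encodes MAGP-1, a small protein bound along microfibrils. It ran from 0 to 9.92 with a median of 0 in the 24 Postn-negative cells and from 0 to 11.70 with a median of 10.12 in the 27 Postn-traced cells. Most Postn-negative cells were listed at 0, and the few with Mfap2 reached into the range of the traced cells, so that the classes overlapped in their upper values. Transcripts were detected in 5 of 24 cells (20.8%, interval 7.13% to 42.2%) of the first class and 26 of 27 cells (96.3%, interval 81% to 99.9%) of the second, and the intervals did not overlap. The class means were 2.08 ± 3.54 and 9.48 ± 2.53, a difference of 7.40 log2 units that exceeded the SD of both classes and ranked 4 of 15733 genes from the top. On the mean of TPM, which gives less weight to cells at 0, it was 3.59.

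Mfap4 encodes a fibrinogen-domain protein that binds elastin and fibrillin. It ran from 0 to 11.23 with a median of 0 in Postn-negative cells and from 1.87 to 12.21 with a median of 10.53 in Postn-traced cells. None of the traced cells was listed at 0, while most of the Postn-negative cells were, and the highest Postn-negative value lay above the median of the traced class. Detection was 6 of 24 cells (25%, interval 9.77% to 46.7%) against 25 of 27 cells (92.6%, interval 75.7% to 99.1%), and the difference of means was 6.87 log2 units, rank 5 of the 15733 genes, and 2.48 on the mean of TPM.

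Mfap5 encodes MAGP-2, a small glycoprotein bound to fibrillin, and had the highest mean TPM of the 10 genes in 8 of the 9 classes. It was above 5 TPM in all cells of the infarct classes except for 1 untraced scar cell, and made up 47.7% of the summed TPM of the 10 genes in Postn-traced cells and 51.9% in Postn-negative cells. It ran from 5.79 to 13.19 with a median of 10.86 in Postn-negative cells and from 5.80 to 13.47 with a median of 11.89 in Postn-traced cells. The ranges overlapped almost wholly, and the difference of means of 0.78 log2 units was smaller than the SD of either class.

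Efemp2 encodes fibulin-4, which brings lysyl oxidase to tropoelastin. It ran from 0 to 11.21 with a median of 0 in Postn-negative cells and from 0 to 10.36 with a median of 8.95 in Postn-traced cells. The highest value of all belonged to a Postn-negative cell, and the classes differed in how many cells held the transcript more than in how high it could be. Detection was 10 of 24 cells (41.7%, interval 22.1% to 63.4%) against 26 of 27 cells (96.3%, interval 81% to 99.9%), and the means differed by 4.67 log2 units. On the mean of TPM, the same difference fell to 1.09 log2 units.

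The fibulins Fbln1, Fbln2 and Fbln5, which link microfibrils, elastin and the cell surface, had class means closer together in these cells, at differences of -0.35, 0.21 and 0.15 log2 units. The direction of the last 2 turned with the class summary, as Fbln2 and Fbln5 differed by -0.81 and -0.76 on the mean of TPM and by -0.24 and -0.76 on the median over cells. Fbln1 was detected in 19 of 24 Postn-negative and 19 of 27 Postn-traced cells, Fbln2 in 22 of 24 and 27 of 27, and Fbln5 in 14 of 24 and 20 of 27. The detection intervals of each of these genes overlapped between the classes.

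Emilin1 ran from 0 to 8.47 with a median of 0 in Postn-negative cells and from 0 to 8.13 with a median of 3.84 in Postn-traced cells, with detection in 5 of 24 cells (20.8%, interval 7.13% to 42.2%) and 18 of 27 cells (66.7%, interval 46% to 83.5%). The ranges overlapped wholly, whereas the detection intervals did not overlap. Its mean difference of 2.39 log2 units was larger than the SD of the Postn-negative and smaller than that of the Postn-traced cells, and on the mean of TPM it was 1.19.

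Across the group, 6 of 10 genes exceeded a difference of 1 log2 unit toward Postn-traced cells and 0 the other way, with a median difference of 1.59. Among the 15733 genes above 5 TPM in at least 1 cell, 16.7% were higher and 2.35% lower by that much, with a median of 0.19. Among the 5039 genes above 5 TPM in at least 20% of the cells, a set closer to the members in detection, 39.6% were higher and the median was 0.73. The share of members, 6 of 10, was above both, nearer to that of the commonly detected genes. On the mean of TPM, 5 members were higher, beside 27.6% and 20.7% of the wider sets. On class means Mfap2, Mfap4 and Efemp2 were apart by more than the SD of both classes, which was not counted for the wider sets. The median log2 level of the detected genes of a cell was itself lower in Postn-traced cells, by a class mean difference of -0.52, and with each cell centred on it the members' median difference was 2.11. More genes were detected per Postn-traced cell, and the part of this in the differences was not tested.

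**Figure D2:**
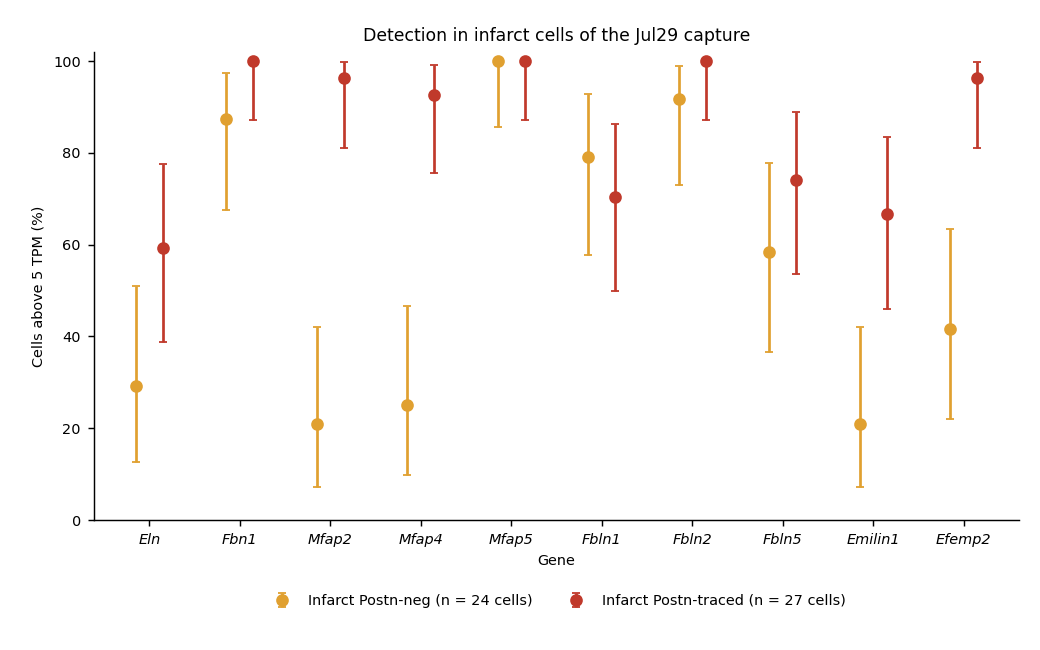
Percent of cells above 5 TPM (vertical axis) for each gene (horizontal axis) in Postn-negative and Postn-traced infarct cells of the Jul29 capture, with exact 95% Clopper-Pearson intervals. The intervals are apart for Mfap2, Mfap4, Emilin1 and Efemp2 and overlap for the other 6 genes. The share of all genes with separate intervals was not counted, and more genes were detected per Postn-traced cell.

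The same capture held 6 Postn-positive cells without a trace, whose median of 2234.5 genes was close to that of the Postn-negative cells. Mfap2 was detected in 5 of 6 of them, from 0 to 11.26 with a median of 9.55 log2(TPM+1). Their median of Mfap2 was thus nearer to that of the Postn-traced cells. Mfap4 was detected in 3 of 6 and Efemp2 in 2 of 6, a share between the classes for Mfap4 and below both for Efemp2. On the mean of TPM both genes were below the Postn-negative cells, Mfap4 at 127 against 261 TPM and Efemp2 at 97.5 against 252 TPM.

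Smooth muscle markers moved with the Postn-traced class. Of Myh11, Acta2, Tagln, Cnn1, Smtn and Lmod1, at least 3 were detected in 3 of 27 Postn-traced and 0 of 24 Postn-negative cells. Their summed TPM had a median of 257 against 4.34, led on the mean by Tagln (514 TPM) and by Smtn (52 TPM). Cnn1 was below 5 TPM in all cells of both classes and Myh11 in all Postn-negative cells. Activated fibroblasts also express Acta2 and Tagln, and the part of these genes in the differences was not tested.

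Markers of other cell types were summed as well, with mean summed TPM given for Postn-negative and then Postn-traced cells. The values were 3.0 and 2.86 for 6 pericyte, 72.5 and 19.5 for 4 endothelial, and 7.18 and 27.2 for 5 myeloid markers. Abcc9 and Notch3 led the pericyte markers, Tek the endothelial and Cd14 the myeloid ones, while Rgs5, Kcnj8, Higd1b, Kdr and Ptprc were below 5 TPM in every cell of both classes. For 6 cardiomyocyte markers the values were 8.37 and 94.3, led by Tnnt2 and Myl2, and for 6 epicardial markers 89.1 and 11.6, led by Krt19 and Wt1. The median of the epicardial sum was 0 in both classes, and 1 Postn-negative cell held 5 of the 6 epicardial markers.

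The promoters of the genes were searched for short motifs, and are printed where the bases before the start lay outside every annotated gene. RefSeq promoter windows of 300 bases matched 7 of the 10 genes, with no entry for Eln, Mfap4 and Mfap5. The 250 bases before the start are printed for Mfap2 and Efemp2, which were higher in Postn-traced cells, and for Fbln1 and Fbln5, which differed by less than 1 log2 unit (GRCm38.p6, gene strand, 5′ to 3′). Capitals mark matches on either strand to the SMAD box CAGAC, the GC box GGGCGG, the TATA box TATAAA, the AP-1 motif TGANTCA, the MCAT motif CATTCC and the E-box CAGCTG, and no matches overlapped in these windows.
Mfap2, chr4:141010174-141010423, plus strand: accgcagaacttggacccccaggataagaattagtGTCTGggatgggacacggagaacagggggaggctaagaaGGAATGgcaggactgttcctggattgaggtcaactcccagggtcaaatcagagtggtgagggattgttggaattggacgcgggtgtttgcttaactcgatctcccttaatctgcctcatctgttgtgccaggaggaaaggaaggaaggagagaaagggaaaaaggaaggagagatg
Efemp2, chr19:5473696-5473945, plus strand: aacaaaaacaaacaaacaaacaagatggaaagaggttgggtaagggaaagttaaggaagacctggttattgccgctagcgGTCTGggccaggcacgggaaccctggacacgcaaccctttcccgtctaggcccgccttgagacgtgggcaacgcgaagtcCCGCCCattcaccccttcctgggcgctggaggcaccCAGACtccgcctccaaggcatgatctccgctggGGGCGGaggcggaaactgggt
Fbln1, chr15:85205699-85205948, plus strand: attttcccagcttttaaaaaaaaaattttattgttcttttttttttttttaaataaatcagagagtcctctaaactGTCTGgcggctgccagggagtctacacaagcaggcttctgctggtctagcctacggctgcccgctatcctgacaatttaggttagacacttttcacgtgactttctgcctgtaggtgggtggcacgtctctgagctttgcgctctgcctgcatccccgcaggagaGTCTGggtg
Fbln5, chr12:101819120-101819369, minus strand: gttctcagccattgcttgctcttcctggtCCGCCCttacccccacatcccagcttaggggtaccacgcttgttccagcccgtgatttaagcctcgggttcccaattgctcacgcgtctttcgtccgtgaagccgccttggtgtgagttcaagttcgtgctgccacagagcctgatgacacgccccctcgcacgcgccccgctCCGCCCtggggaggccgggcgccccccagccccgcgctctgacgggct
Over the whole windows, the SMAD box was found in 7 of the 12 windows of these genes, which belong to 5 of the 7 genes, and in 49.6% of all 32851 windows of the table. The GC box was found in 8 of the 12 windows, of 6 genes (all windows 35.7%). The E-box was found in 4, of 3 genes (16.3%), and the MCAT motif in 1, of Mfap2 (14.7%). Windows of the same gene can overlap, so that a site can fall in several windows. No TATA box or AP-1 match was found in the 12 windows, against 13.6% and 7.81% of all windows. The SMAD box was present both for genes that were higher and for genes that were not.

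The second comparison followed the Tcf21 lineage from uninjured hearts into the infarct. Elastin, fibrillin-1, all 3 microfibril-associated genes, Fbln2, Emilin1 and Efemp2 had higher means in infarct cells. Fbln1 and Fbln5 had lower means. The infarct cells came from Nov4 and the uninjured cells from Jul24, so that injury and capture cannot be told apart.

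Efemp2 ran from 0 to 9.15 with a median of 0 in the 17 uninjured and from 0 to 10.49 with a median of 7.71 in the 44 infarct cells. Both classes held cells at 0, yet most infarct cells lay above most uninjured cells. The means differed by 3.41 log2 units, and by 2.20 on the mean of TPM. Emilin1 ran from 0 to 7.21 with a median of 0 and from 0 to 8.85 with a median of 5.87, with detection in 5 of 17 cells (29.4%, interval 10.3% to 56%) and 32 of 44 cells (72.7%, interval 57.2% to 85%). Its ranges overlapped, and its detection intervals did not.

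Fbln2 encodes fibulin-2, a fibulin of provisional matrix and of valves. It ran from 0 to 9.52 with a median of 7.78 in uninjured and from 4.51 to 10.97 with a median of 9.28 in infarct cells, with means 2.78 log2 units apart (1.72 on the mean of TPM). Every infarct cell held it, with a small spread of 1.28, and the uninjured cells reached lower. Eln ran from 0 to 7.55 with a median of 0 and from 0 to 12.41 with a median of 4.67, and was detected in 5 of 17 cells (29.4%, interval 10.3% to 56%) against 28 of 44 cells (63.6%, interval 47.8% to 77.6%). Most uninjured cells were listed at 0 for Eln, and the classes overlapped.

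Fbln5 encodes fibulin-5, which ties elastin to cell-surface integrins. It ran from 1.16 to 10.52 with a median of 7.10 in uninjured cells and from 0 to 9.69 with a median of 7.10 in infarct cells. The medians were nearly equal, 0.00176 log2 units apart, and the mean difference of -1.06 went with 6 infarct cells listed at 0 and no uninjured ones. Fbln1 differed by -1.18, Mfap4 by 2.49, Mfap2 by 2.11, Fbn1 by 1.5 and Mfap5 by 1.44 log2 units. On the mean of TPM, the differences of Fbln1, Mfap4 and Mfap2 were -0.0767, 0.59 and 0.24 and that of Fbln5 -0.66, so that none of the 4 reached 1 log2 unit. Each of the 10 differences of class means was smaller than the larger SD between cells.

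Of the 10 genes, 8 differed by over 1 log2 unit toward infarct Tcf21-traced cells and 2 away from them, with a median of 2.30. The shares among the 15733 genes were 16.9% and 2.65%, and among commonly detected genes 44.1% were higher, with a median of 0.84. The count of higher members was above both shares. The count of lower members was 0 on the mean of TPM, with a pseudocount of 5, with each cell centred, and when 1 particular cell of the 17 uninjured ones was left out, and it was 1 when any of 12 single infarct or 9 other single uninjured cells was left out. The higher count on the mean of TPM was 6, beside 31.5% and 26.6% of the wider sets. The median number of genes detected was 3134 in infarct and 2264 in uninjured cells, and the mean summed TPM of the smooth muscle markers was 462, led by Tagln, and 103, led by Smtn. Pericyte markers summed to 53.1 and 2.98, both led by Kcnj8, with Abcc9 and Higd1b below 5 TPM in every cell of both classes. Cardiomyocyte markers summed to 12.7 and 58.3, both led by Tnnt2, with Myh6, Actc1 and Ryr2 below 5 TPM in every cell of both. Endothelial markers summed to 16.9 and 49.8, both led by Tek, and myeloid markers to 8.83 and 22, led by Lyz2 and Cd68, with Kdr and Ptprc below 5 TPM in every cell of both. Epicardial markers summed to 1.97 in infarct cells, led by Wt1, and all 6 were below 5 TPM in every uninjured cell. Without the 1 infarct cell that held 3 pericyte markers, 8 members were higher and 2 lower, as before. The part of the other markers in the count was not tested.

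Postn-negative cells of the infarct were next set against resident Postn-negative cells, again across captures (Jul29 and Jul24). Fibrillin-1, Mfap5, Fbln2, Eln and Mfap4 had means more than 1 log2 unit higher in the infarct cells, and Emilin1 and Fbln1 lower ones. Fbn1 ran from 0 to 8.15 with a median of 3.97 in the 12 resident cells and from 0 to 10.34 with a median of 6.91 in the 24 infarct cells, a difference of means of 2.44 log2 units. Emilin1 ran from 0 to 9.58 with a median of 3.54 and from 0 to 8.47 with a median of 0, a difference of -2.43. Fbln1 differed by -1.27 log2 units in class mean, -1.31 on the mean of TPM and -1.51 on the median over cells, the same direction in each. The classes overlapped for Fbn1 and Emilin1, and no member differed by more than the larger SD. Mfap2 and Efemp2, which set Postn-traced cells apart, differed here by -0.15 and -0.38. These depended on the class summary, since on the mean of TPM they were 2.22 and 1.05 and on the median over cells -1.08 and -2.20. Mfap5 was 2.45 log2 units higher in the infarct cells, and 1.20 on the mean of TPM. Fbln2, Eln and Mfap4 were 1.48, 1.17 and 1.05 higher in class mean and 0.78, 2.71 and 2.96 on the mean of TPM, while the medians over cells of Eln and Mfap4 did not differ.

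In this comparison 5 of 10 genes were more than 1 log2 unit higher and 2 lower, with a median of 0.55, against 10.3% and 5.2% of the 15733 genes and 26.3% higher among commonly detected genes. The share of members that were higher was above both. It rested on few cells, as 3 members were higher when any of 5 single cells was left out, and likewise with a pseudocount of 5, and 1 was lower when any of 3 single resident cells was left out. By the mean of TPM, 6 were higher and 2 lower, beside 30.1% and 18.2% of the 15733 genes and 33.1% and 19.7% of those commonly detected. By the median over cells, 4 were higher and 4 lower. The shares by that summary were 5.98% and 3.06% of the 15733 genes and 18.6% and 9.11% of those commonly detected. The medians of genes detected were closer here, 2342 in infarct and 2091.5 in resident cells, and the Postn-negative infarct cells are those of the first comparison.

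Myeloid markers were higher in the resident Postn-negative class. Of 5 in the table, 4 were detected in at least 1 of its 12 cells and Csf1r in none, and their summed TPM had a mean of 1426, led by Cd14 (661 TPM), against 7.18 in infarct Postn-negative cells, with a median of 0 in both. A single resident cell held 4 of these markers and 1 of the fibroblast markers. Without that cell, 3 members were higher and 2 lower in infarct than in resident Postn-negative cells. Epicardial markers summed to a mean of 89.1 TPM in the infarct class, while all 6 were below 5 TPM in every cell of the resident class, and 5 of the 6 were detected in 1 infarct cell, without which 4 members were higher. Pericyte markers summed to 3.0 in infarct and 56.2 in resident cells, both led by Abcc9, with Rgs5, Kcnj8, Cspg4 and Higd1b below 5 TPM in every cell of both, and endothelial markers to 72.5 and 9.36, both led by Tek, with Kdr below 5 TPM in every cell. Smooth muscle markers summed to 87.2 and 49.5, both led by Smtn, with Myh11, Cnn1 and Lmod1 below 5 TPM in every cell, and cardiomyocyte markers to 8.37 and 0.443, both led by Tnnt2. Without the 1 infarct cell that held 4 cardiomyocyte markers, 5 members were higher and 2 lower, as before. The part of the pericyte, endothelial and smooth muscle markers was not tested.

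Within the resident capture, Tcf21-traced cells had higher means of Fbn1, Fbln5 and Mfap5 than Postn-negative cells and a lower mean of Emilin1. Fbln5 ran from 0 to 9.97 with a median of 4.24 in the 12 Postn-negative cells and from 1.16 to 10.52 with a median of 7.10 in the 17 Tcf21-traced cells, 1.99 log2 units apart in mean. No traced cell was listed at 0 for Fbln5, but the ranges overlapped. Fbn1 was detected in 6 of 12 cells (50%, interval 21.1% to 78.9%) and 17 of 17 cells (100%, interval 80.5% to 100%), and the means were 2.29 log2 units apart. The detection intervals of Fbn1 did not overlap, whereas its values did. Emilin1 differed by -1.90 and Efemp2 by -1.15. Mfap2 had a higher mean in the traced cells (1.37) and a lower median (-1.08 log2 units), and on the mean of TPM it was 4.02 log2 units higher. Eln and Mfap4 were 1.03 and 1.40 log2 units higher in class mean and 2.79 and 2.41 on the mean of TPM, and the medians of both were 0 in both classes. Fbn1, Fbln5 and Mfap5 were 0.83, 0.80 and 0.99 log2 units higher on the mean of TPM, each less than 1.

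Here 6 of 10 genes were more than 1 log2 unit higher and 2 lower, with a median of 1.20, against 8.65% and 6.55% of the 15733 genes and 21.1% higher among commonly detected genes. The higher count was 5 when any of 9 single Postn-negative or 5 single Tcf21-traced cells was left out. It was 4 when either of 2 other single Tcf21-traced cells was left out, and with a pseudocount of 5. The lower count was 1 with a pseudocount of 5 and when any of 3 single Postn-negative cells was left out. It was 3 when any of 2 other single Postn-negative cells was left out. Taking medians of cells instead of means, the higher count was 3 and the median difference 0.00, so that the result depended on how a class was summarised. On the mean of TPM the higher count was 3, of Eln, Mfap2 and Mfap4, close to the 26.2% and 31.7% of the wider sets. The lower count by that summary was 3, of Fbln1, Fbln2 and Emilin1, beside 19.8% and 22.4% of the wider sets. A median of 2264 genes was detected in Tcf21-traced and 2091.5 in Postn-negative cells. Myeloid markers summed to a mean of 22 TPM in the Tcf21-traced class, led by Cd68, against 1426 in the Postn-negative class, and without the 1 Postn-negative cell with 4 of them, 5 members were higher and 3 lower. Pericyte markers summed to 2.98 and 56.2, led by Kcnj8 and Abcc9, and cardiomyocyte markers to 58.3 and 0.443, both led by Tnnt2, with Myh6, Actc1, Tnni3 and Ryr2 below 5 TPM in every cell of both. Endothelial markers summed to 49.8 and 9.36, both led by Tek, with Pecam1, Kdr and Egfl7 below 5 TPM in every cell of both. Smooth muscle markers summed to 103 and 49.5, both led by Smtn, and all 6 epicardial markers were below 5 TPM in every cell of both classes. The part of these was not tested.

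The 4 resident cells with Postn are given singly. The Postn-positive cell without Tcf21 in its label held Mfap2 at 11.35, Mfap5 at 11.21, Fbln1 at 10.26, Mfap4 at 9.44, Fbn1 at 6.79, Fbln2 at 6.37 and Fbln5 at 1.45 log2(TPM+1), and was listed at 0 for Eln, Emilin1 and Efemp2. Its Mfap2 and Mfap4 lay within the wide ranges of the Postn-traced infarct cells. Its Mfap4 lay within the range of the Postn-negative infarct cells as well, while its Mfap2 was above theirs. The 3 Tcf21-positive Postn-positive cells were listed at 0 for Eln and Mfap4. Their Mfap5 was 0, 9.81 and 10.86, their Mfap2 0, 0 and 7.38 and their Fbln2 6.52, 9.54 and 0.88. With 0 of 3 cells positive for Eln, shares of up to 70.8% are allowed by the exact interval.

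In capture Nov4, the 19 Postn-positive cells without a trace were set against the 44 Tcf21-traced cells. Mfap2 ran from 0 to 11.62 with a median of 8.09 in the Tcf21-traced cells and from 0 to 11.88 with a median of 8.40 in the Postn-positive cells. Both classes spanned nearly the whole range, and fewer Postn-positive cells were at low values. The means differed by 1.73 for Mfap2 and 1.13 for Efemp2, and by 0.55 and 0.77 on the mean of TPM, while the other 8 genes lay within 1 log2 unit by either.

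The 2 genes higher and 0 lower in this comparison stood against 5.05% and 3.34% of the 15733 genes and 10.7% higher among commonly detected genes, with a median of 0.15. The higher count was above both shares, but it was 0 on the mean of TPM and fell to 1 when any of 21 single cells was left out. A median of 3361 genes was detected in Postn-positive and 3134 in Tcf21-traced cells. Smooth muscle markers summed to a mean of 1205 TPM (median 288) in the 19 Postn-positive and 462 (median 129) in the 44 Tcf21-traced cells. At least 3 of the 6 were detected in 5 and 10 cells, Tagln led them in both classes, and Myh11 was below 5 TPM in every cell of both. Pericyte markers summed to 11 in Postn-positive and 53.1 in Tcf21-traced cells, led by Cspg4 and Kcnj8, and cardiomyocyte markers to 15.9 and 12.7, led by Actc1 and Tnnt2. Endothelial markers summed to 13.3 and 16.9, both led by Tek, myeloid markers to 6.25 and 8.83, both led by Lyz2, and epicardial markers to 0.591 and 1.97, both led by Wt1. Kdr, Ptprc, Ryr2, Abcc9 and Higd1b were below 5 TPM in every cell of both classes. Without the 1 Tcf21-traced cell that held 3 pericyte markers, 1 member was higher and 0 lower. The part of the other markers in the differences was not tested.

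The lineage-traced infarct classes were then compared with each other, across captures Nov4 and Jul29. Tcf21-traced cells had lower means of Mfap4, Mfap2 and Efemp2 than Postn-traced cells. Mfap4 ran from 0 to 10.50 with a median of 6.56 in Tcf21-traced and from 1.87 to 12.21 with a median of 10.53 in Postn-traced cells, and the difference of means was -4.03 log2 units. Cells at 0 were common in the Tcf21-traced class and absent from the other, although the upper ranges met. Detection was 27 of 44 cells (61.4%, interval 45.5% to 75.6%) against 25 of 27 cells (92.6%, interval 75.7% to 99.1%). On the mean of TPM the difference of Mfap4 was -2.43. The differences of Mfap2 and Efemp2 were -3.77 and -2.03, and -1.54 and -0.78 on the mean of TPM. Fbn1 and Mfap5 had nearly equal means, 0.00 and 0.04 apart.

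In this comparison 3 of 10 genes were more than 1 log2 unit lower in Tcf21-traced cells and 1 higher, Emilin1, against 6.14% and 3.43% of the 15733 genes and 13.8% lower among commonly detected genes. The median over the 10 genes was 0.02. No leaving out of 1 cell changed the lower count, whereas the higher count was 0 without any of 19 single cells and on the mean of TPM. By that summary 2 members were lower, Mfap2 and Mfap4, beside 19.7% of the 15733 genes and 11.7% of those commonly detected, so that the lower count was then close to the share among all genes. Fewer genes were detected in Tcf21-traced cells, a median of 3134 against 3643, and their smooth muscle markers summed to a mean of 462 against 747 TPM, both led by Tagln. Cardiomyocyte markers summed to 12.7 and 94.3 TPM, led by Tnnt2 and Myl2, with Myh6, Actc1 and Ryr2 below 5 TPM in every cell of both classes. Pericyte markers summed to 53.1 and 2.86, led by Kcnj8 and Notch3, with Abcc9 and Higd1b below 5 TPM in every cell. Myeloid markers summed to 8.83 and 27.2, led by Lyz2 and Cd14, and endothelial markers to 16.9 and 19.5, both led by Tek, with Ptprc and Kdr below 5 TPM in every cell of both. Epicardial markers summed to 1.97 and 11.6, both led by Wt1, the only one of the 6 detected in either class. Without the 1 Tcf21-traced cell that held 3 pericyte markers, 3 members were lower and 1 higher, as before. The part of the other markers in the count was not tested. Lineage and capture cannot be told apart, and the comparison shares its classes with others above.

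**Figure D3:**
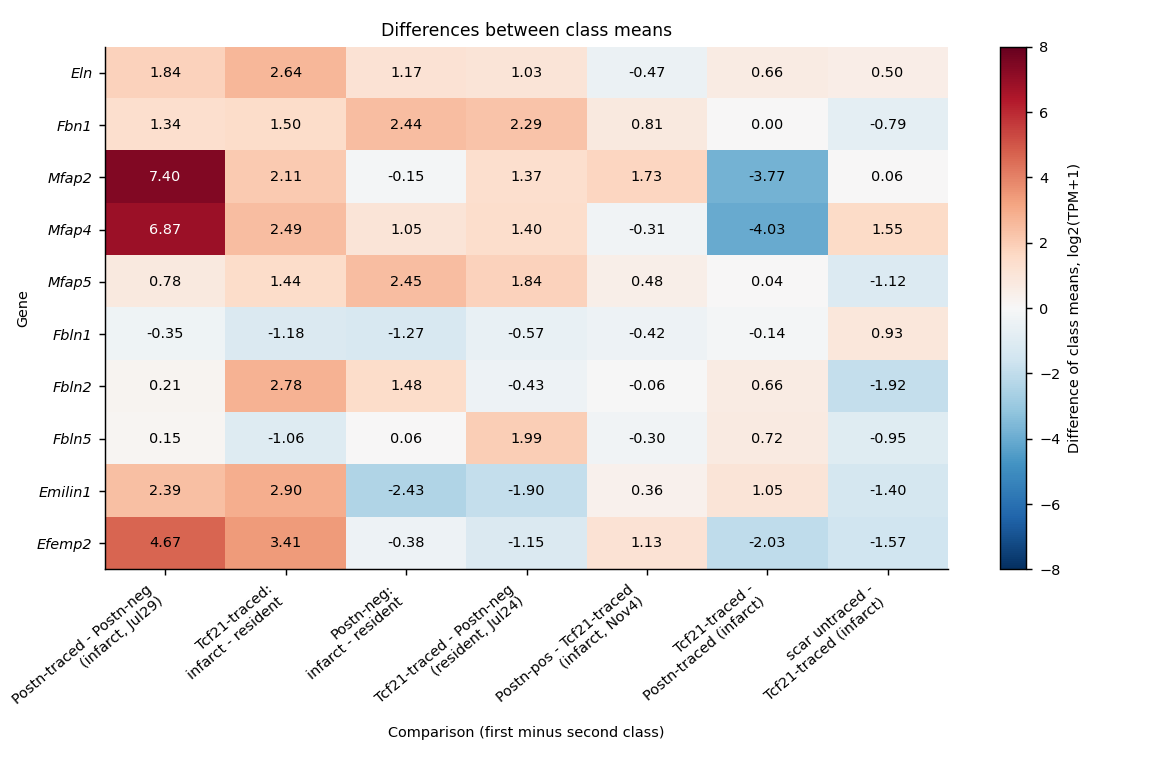
Difference of class means in log2(TPM+1) (colour and printed value) for each gene (rows) in the 7 comparisons (columns), first class minus second. Mfap2, Mfap4 and Efemp2 have the largest values in the comparison within Jul29 and the lowest in the comparison of the Tcf21-traced with the Postn-traced class, and comparisons that share a class are not independent.

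Untraced scar cells were compared last with the infarct Tcf21-traced cells, in captures Nov11 and Nov4. Fbln2 ran from 4.51 to 10.97 with a median of 9.28 in the 44 Tcf21-traced cells and from 0 to 11.40 with a median of 8.64 in the 29 untraced cells. Their medians were close, and the untraced class held cells at 0 that the other did not. The mean difference was -1.92 log2 units, -0.99 without the 6 cells with few genes and -0.0252 on the mean of TPM. Mfap4 was 1.55 log2 units higher in the untraced cells, and 2.24 without those cells. The differences of Efemp2, Emilin1 and Mfap5 were -1.57, -1.40 and -1.12, and on the mean of TPM Efemp2 was at -0.41 while Emilin1 and Mfap5 turned to 0.73 and 0.15. Without the 6 cells, Efemp2, Emilin1 and Mfap5 were at -0.59, -0.82 and -1.01. Eln, Mfap2 and Fbln1 were then 1.25, 1.13 and 1.12 log2 units higher in the untraced cells.

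Among the 10 genes, 4 were more than 1 log2 unit lower and 1 higher in the untraced cells, against 13.2% and 1.11% of the 15733 genes and 37.5% lower among commonly detected genes, with a median of -0.87 for the members and -0.73 for those commonly detected. Without the 6 cells, 1 gene was lower and 4 were higher, and the median was -0.0756, beside 6.35% lower and 4.14% higher of the 15733 genes and 17.3% and 8.79% of the commonly detected ones. The higher count of 1 was 2 without any of 13 single Tcf21-traced or 8 single scar cells, and the lower count was 3 to 5 when 1 cell was left out. With the mean of TPM, 2 members were higher and 0 lower, beside 17.4% and 25.2% of the 15733 genes. The lower count of 4 rested on those 6 cells, and was close to the share among commonly detected genes. The median log2 level of the detected genes of a cell differed by 0.84 between the classes, and with each cell centred on it the members' median was -1.70.

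Markers of other cell types also moved between the untraced scar and the Tcf21-traced class. Epicardial markers summed to a mean of 90.1 and 1.97 TPM, led by Wt1 in both, with Upk3b, Upk1b, Msln and Krt19 below 5 TPM in every cell of both. Pericyte markers summed to 166 and 53.1, led by Rgs5 and Kcnj8, and smooth muscle markers to 209 and 462, both led by Tagln. Myeloid markers summed to 36.2 and 8.83, led by Cd14 and Lyz2, with Ptprc below 5 TPM in every cell of both. Cardiomyocyte markers summed to 4.96 and 12.7, led by Tnni3 and Tnnt2, with Myh6, Actc1 and Ryr2 below 5 TPM in every cell of both, and endothelial markers to 18.9 and 16.9, both led by Tek. Without the 2 scar cells and the 1 Tcf21-traced cell that held at least 3 pericyte or myeloid markers, 4 members were lower and 1 higher, as before, and the median was -0.88. The part of the smooth muscle, endothelial, cardiomyocyte and epicardial markers was not tested.

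Set in order of class mean log2(TPM+1), with the SD between cells, the genes had different patterns over the 7 classes of more than 3 cells. The Postn-positive class pools 3 captures, whose means differed for several genes, and the place that the cells of each capture would take alone is given with each order. From high to low, the order for Eln was untraced scar (5.01 ± 4.06), infarct Tcf21-traced (4.51 ± 3.36), Postn-positive (4.06 ± 3.61), Postn-traced (3.85 ± 3.32), infarct Postn-negative (2.01 ± 2.98), resident Tcf21-traced (1.87 ± 3.06) and resident Postn-negative (0.84 ± 1.68). Elastin transcripts were thus highest in the infarct classes other than the Postn-negative one. For Fbn1 the order was Postn-positive (7.76 ± 2.13), infarct Tcf21-traced (7.60 ± 2.37), Postn-traced (7.60 ± 1.57), untraced scar (6.81 ± 3.22), infarct Postn-negative (6.26 ± 2.88), resident Tcf21-traced (6.10 ± 1.93) and resident Postn-negative (3.81 ± 3.37). The resident Postn-negative cells stood lowest for fibrillin-1. Postn-positive cells had Fbn1 means of 5.39 ± 3.46 in Jul29, 8.41 ± 0.999 in Nov4 and 8.43 ± 0.86 in Nov11, which taken singly would be at places 6, 1 and 1. Those of Eln were 3.14 ± 3.63 in Jul29, 4.04 ± 3.32 in Nov4 and 6.00 ± 5.98 in Nov11, at places 4, 3 and 1. Without the cells with few genes, 6 untraced scar cells and 1 Postn-positive cell, the scar class had means of 5.76 ± 3.45 for Eln, still first, and 8.04 ± 1.49 for Fbn1, at place 1 instead of 4.

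Of the microfibril-associated genes, Mfap2 followed the order Postn-traced (9.48 ± 2.53), Postn-positive (7.15 ± 3.86), untraced scar (5.77 ± 4.62), infarct Tcf21-traced (5.71 ± 4.42), resident Tcf21-traced (3.60 ± 4.61), resident Postn-negative (2.23 ± 2.70) and infarct Postn-negative (2.08 ± 3.54). That of Mfap4 was Postn-traced (9.08 ± 2.96), untraced scar (6.60 ± 4.70), infarct Tcf21-traced (5.05 ± 4.10), Postn-positive (4.60 ± 3.97), resident Tcf21-traced (2.55 ± 3.75), infarct Postn-negative (2.21 ± 3.99) and resident Postn-negative (1.16 ± 2.78). Without the cells with few genes the scar class had 6.84 ± 4.19 and 7.29 ± 4.11, in the same places. Both genes were highest in Postn-traced cells, and both classes of Postn-negative cells were at the low end. Postn-positive cells had Mfap2 means of 7.19 ± 4.66 in Jul29, 7.43 ± 3.66 in Nov4 and 5.25 ± 4.55 in Nov11, at places 2, 2 and 4, and Mfap4 means of 3.11 ± 3.87 in Jul29, 4.74 ± 3.78 in Nov4 and 6.68 ± 5.79 in Nov11, at places 4, 4 and 2. Mfap5 was high throughout, in the order infarct Tcf21-traced (11.58 ± 1.92), Postn-traced (11.54 ± 1.59), Postn-positive (11.36 ± 1.88), infarct Postn-negative (10.76 ± 1.47), untraced scar (10.46 ± 3.76), resident Tcf21-traced (10.14 ± 2.51) and resident Postn-negative (8.30 ± 3.72). Without those cells, the mean of Mfap5 in the scar class was 10.56 ± 3.21, again at place 5. Postn-positive cells had Mfap5 means of 9.62 ± 2.70 in Jul29, 12.06 ± 0.91 in Nov4 and 10.37 ± 2.58 in Nov11, at places 6, 1 and 5.

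Among the fibulins, Fbln1 had the resident classes first, in the order resident Postn-negative (7.35 ± 4.13), resident Tcf21-traced (6.77 ± 3.26), untraced scar (6.53 ± 4.11), infarct Postn-negative (6.08 ± 3.50), Postn-traced (5.73 ± 4.14), infarct Tcf21-traced (5.59 ± 3.75) and Postn-positive (5.07 ± 3.52). The spread within each class was larger than the whole range of the class means of Fbln1. On the mean of TPM, resident Postn-negative cells (947 TPM) were still first, followed by untraced scar cells (622 TPM). Resident Tcf21-traced cells, at 360 TPM, then stood below infarct Postn-negative (381 TPM) and Postn-traced cells (379 TPM). Fbln2 was in the order infarct Tcf21-traced (9.01 ± 1.28), Postn-positive (8.71 ± 2.11), Postn-traced (8.35 ± 1.38), infarct Postn-negative (8.14 ± 2.95), untraced scar (7.09 ± 4.16), resident Postn-negative (6.66 ± 3.58) and resident Tcf21-traced (6.24 ± 2.92). For Fbln5 it was resident Tcf21-traced (6.76 ± 2.84), infarct Tcf21-traced (5.70 ± 3.30), Postn-positive (5.18 ± 3.16), Postn-traced (4.98 ± 2.98), infarct Postn-negative (4.83 ± 3.77), resident Postn-negative (4.77 ± 3.53) and untraced scar (4.76 ± 4.25). The order for Efemp2 was Postn-traced (7.86 ± 2.69), Postn-positive (6.15 ± 4.05), infarct Tcf21-traced (5.82 ± 3.92), untraced scar (4.25 ± 4.02), resident Postn-negative (3.56 ± 3.94), infarct Postn-negative (3.18 ± 4.13) and resident Tcf21-traced (2.41 ± 3.41). Only Efemp2 among the fibulin genes had Postn-traced cells first. Without the cells with few genes, the scar class kept its place for Fbln1 (6.71 ± 3.47), Fbln2 (8.02 ± 3.31) and Efemp2 (5.23 ± 3.92), and for Fbln5 (5.07 ± 3.94) it was at place 4 instead of last. By capture, the Efemp2 means of Postn-positive cells were 2.60 ± 4.09 in Jul29, 6.95 ± 3.77 in Nov4 and 8.13 ± 1.42 in Nov11, at places 6, 2 and 1, so that their place in the order mixed captures that stood far apart. Those of Fbln1 were at places 5, 7 and 7, those of Fbln2 at 2, 2 and 4 and those of Fbln5 at 3, 3 and 7.

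Emilin1 was in the order infarct Tcf21-traced (4.72 ± 2.97), Postn-positive (4.33 ± 3.02), resident Postn-negative (3.72 ± 3.80), Postn-traced (3.67 ± 2.88), untraced scar (3.33 ± 3.44), resident Tcf21-traced (1.82 ± 2.62) and infarct Postn-negative (1.28 ± 2.37). Infarct Postn-negative cells stood last, and resident Postn-negative cells stood above the Postn-traced ones. The scar class, at 3.91 ± 3.42 without the cells with few genes, was then at place 3 instead of 5. Postn-positive cells had Emilin1 means of 2.07 ± 3.31 in Jul29, 5.08 ± 2.68 in Nov4 and 4.08 ± 3.24 in Nov11, at places 5, 1 and 2. For each of the 10 genes, the gap between neighbours in the order, with or without the cells with few genes, was smaller than the larger SD of the pair, so that no neighbouring classes were apart beyond the spread between cells.

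Taking the genes as a group, Postn-traced cells held from 6 to 10 of the 10 genes above 5 TPM (median 9) and Postn-negative infarct cells from 3 to 8 (median 5.5). No cell of the Postn-negative or resident classes held all 10, while 6 of 27 Postn-traced, 12 of 44 infarct Tcf21-traced, 7 of 28 Postn-positive and 5 of 29 untraced scar cells did. Their summed abundance had a median of 9481 TPM in Postn-traced, 9192 in untraced scar (6642 without the 6 cells with few genes), 4841 in Postn-negative infarct and 2528 in resident Postn-negative cells. Of the 7 classes of more than 3 cells, the 3 with the lowest medians of genes detected also had the lowest medians of members.

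**Figure D4:**
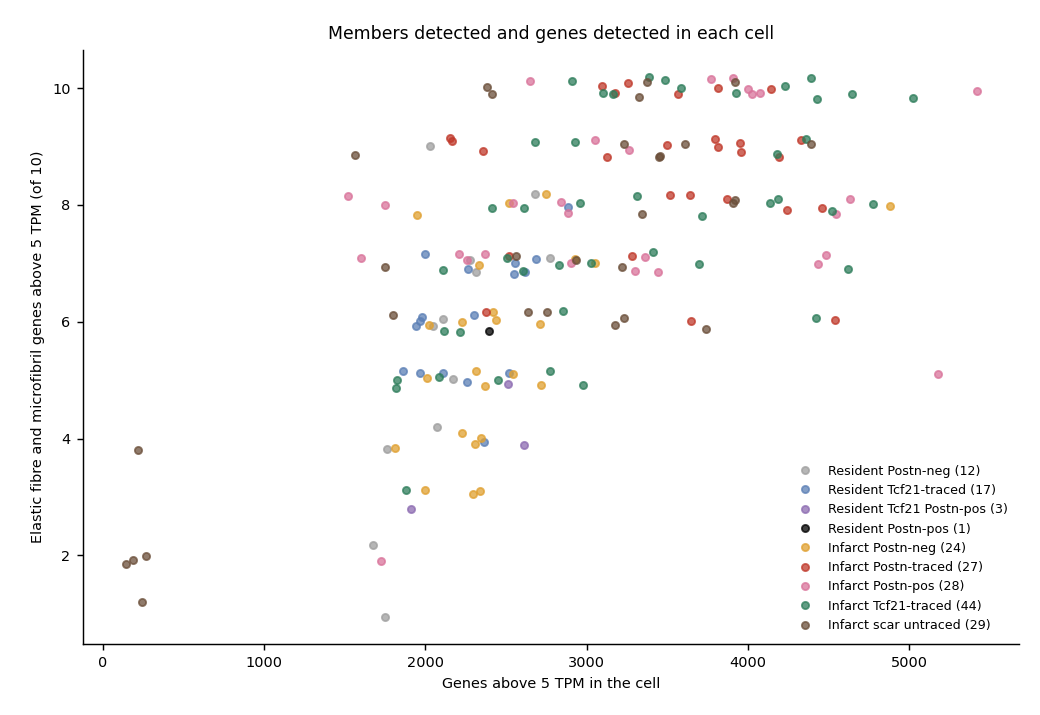
Number of the 10 genes above 5 TPM (vertical axis, with points moved slightly apart) against the number of all genes above 5 TPM (horizontal axis) in each cell, coloured by class. Cells with all 10 genes belong to the infarct classes other than the Postn-negative one, and 5 untraced scar cells lie at the far left.

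The variation of the genes with each other was described from cell to cell. Pooled over 178 cells, with each value centred on its class, the 45 pairs had a median Pearson correlation of 0.125 and ranged from -0.0604 to 0.383. Fbn1 and Mfap5 (0.383) and Eln and Mfap4 (0.378) were the closest pairs. Single classes held closer pairs, and their median was 0.0598 (from -0.338 to 0.569) in the 27 Postn-traced and 0.187 (from -0.248 to 0.446) in the 44 infarct Tcf21-traced cells. The closest were Eln with Mfap4 (0.569) and with Fbln1 (0.554) among Postn-traced, and Fbn1 with Mfap2 (0.446) and Mfap4 with Efemp2 (0.440) among Tcf21-traced cells. Within the Tcf21-traced class, the genes of these pairs also correlated with the number of genes detected, at 0.665 for Efemp2, 0.486 for Mfap4, 0.480 for Mfap2 and 0.403 for Fbn1, about as closely as with each other or more so. Within the Postn-traced class the values for Eln, Mfap4 and Fbln1 were -0.156, 0.00582 and -0.166. Pooled over classes, Fbn1, Mfap2, Efemp2 and Mfap4 correlated as well with the number of genes detected (0.447, 0.443, 0.407 and 0.305). Eln did less so (0.114), and the part of the number of genes in the correlations between members was not tested. The cells of 6 of the 7 classes share 1 capture each, Postn-positive cells were centred within capture, without the 3 of Nov11, and the read depth of each cell is unknown.

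Among commonly detected genes, the 3 closest to each member other than Fbln1 over the same 178 cells were as follows, as a description only. For Eln they were Itgbl1 (r = 0.417), Mfap4 (r = 0.378) and Rpl36 (r = 0.363), and for Mfap4 Lox (r = 0.440), Wisp2 (r = 0.421) and Eln (r = 0.378). Lox, the lysyl oxidase gene, thus stood nearest to Mfap4. For Fbn1 they were Rhoa (r = 0.456), Pcolce (r = 0.438) and Crip1 (r = 0.429), for Mfap2 Tmem176b (r = 0.413), Snx22 (r = 0.396) and Zscan26 (r = 0.395) and for Mfap5 Fstl1 (r = 0.560), Pam (r = 0.482) and Pi16 (r = 0.447). Fbln2 had S100a6 (r = 0.408), Gfpt2 (r = 0.363) and Pi16 (r = 0.360), and Fbln5 had Ctgf (r = 0.403), Crispld2 (r = 0.380) and Wisp2 (r = 0.368). Emilin1 had Col14a1 (r = 0.359), Col1a1 (r = 0.341) and Glt8d1 (r = 0.325), and Efemp2 had Cops6 (r = 0.385), Yipf5 (r = 0.377) and Rab31 (r = 0.372).

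Of 53 other listed genes of elastic fibre assembly, 50 were in the table. Between Postn-traced and Postn-negative infarct cells, 16 of the 50 were more than 1 log2 unit higher and 4 lower, with a median difference of 0.29, beside 16.7% and 2.35% of all 15733 genes and 39.6% higher among commonly detected ones. The share of the listed genes that were higher lay between these. The same shares stand beside each shorter list that follows in this comparison, and all differences of listed genes are of class means. The cross-linking enzymes were 3 of 6 higher. Lox had means of 1.16 ± 2.46 in Postn-negative and 7.57 ± 2.39 in Postn-traced cells and was detected in 4 of 24 and 25 of 27, a difference of 6.41 log2 units. That exceeded the SD of both classes, whereas Loxl1 (1.67) and Loxl2 (1.53) moved less.

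Latent TGF-β binding proteins share the fibrillin fold and bind microfibrils. Of 4, Ltbp2 and Ltbp3 were higher and Ltbp4 lower. Ltbp2 was detected in 0 of 24 Postn-negative cells, which allows a share of up to 14.2% by the exact interval, and in 18 of 27 Postn-traced cells. Its means were 0.03 ± 0.16 and 5.20 ± 3.85. Ltbp3 differed by 2.96 and Ltbp4, which binds fibulin-5, by -1.62 log2 units.

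The fibrillin-2 gene Fbn2 was listed at 0 in all 24 Postn-negative cells and detected in 13 of 27 Postn-traced cells. Fbln7 was likewise listed at 0 in the Postn-negative cells, and was detected in 4 of 27 traced cells. The fibulin-3 gene Efemp1 went the other way, with means of 3.84 ± 4.49 and 0.80 ± 1.74 and detection in 11 of 24 against 3 of 27. Of 11 listed relatives of the members, these 3 were more than 1 log2 unit apart.

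Of 5 genes of the elastin receptor complex and its chaperones, Fkbp10 (3.97), Glb1 (2.66) and Ctsa (1.49 log2 units) were higher. Glb1 and Ctsa encode lysosomal enzymes, and a splice form of Glb1 is the elastin-binding protein, which these gene-level values do not separate. Among 7 listed elastases and related proteases in the table, Ctsk (3.82) and Mmp14 (3.44) were higher and 5 lay within 1 log2 unit. Of 7 integrin genes, Itgb5, Itgav and Itgb1 were higher by 1.52, 1.38 and 1.11. Of 3 proteoglycans Bgn was higher by 1.51, and of 7 fibrillin-binding ADAMTS genes Adamtsl3 (-2.58) and Adamtsl5 (-1.33) were lower.

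In the other comparisons the same 50 genes divided as follows, beside the shares of the 15733 genes and of the commonly detected genes that were more than 1 log2 unit higher and lower. Between infarct and uninjured Tcf21-traced cells, 19 were higher and 5 lower, against 16.9% and 2.65% of all genes and 44.1% and 5.54% of those commonly detected. Infarct against resident Postn-negative cells gave 8 and 5, against 10.3% and 5.2% of all genes and 26.3% and 10.3% of those commonly detected. Tcf21-traced against Postn-negative resident cells gave 7 and 5, against 8.65% and 6.55% of all genes and 21.1% and 13.8% of those commonly detected. In these 3 comparisons the share of higher genes lay between those of the wider sets. Postn-positive against Tcf21-traced cells of Nov4 gave 5 and 3, against 5.05% and 3.34% of all genes and 10.7% and 8.89% of those commonly detected. Tcf21-traced against Postn-traced infarct cells gave 7 and 9, against 3.43% and 6.14% of all genes and 8.93% and 13.8% of those commonly detected. Untraced scar against Tcf21-traced cells gave 1 and 12, against 1.11% and 13.2% of all genes and 2% and 37.5% of those commonly detected. This count of listed genes includes the 6 scar cells with few genes. The listed genes were not counted without those cells, so that the shares without them do not belong beside this count. They were 4.14% of all genes higher and 6.35% lower, and 8.79% and 17.3% of those commonly detected.

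**Figure D5:**
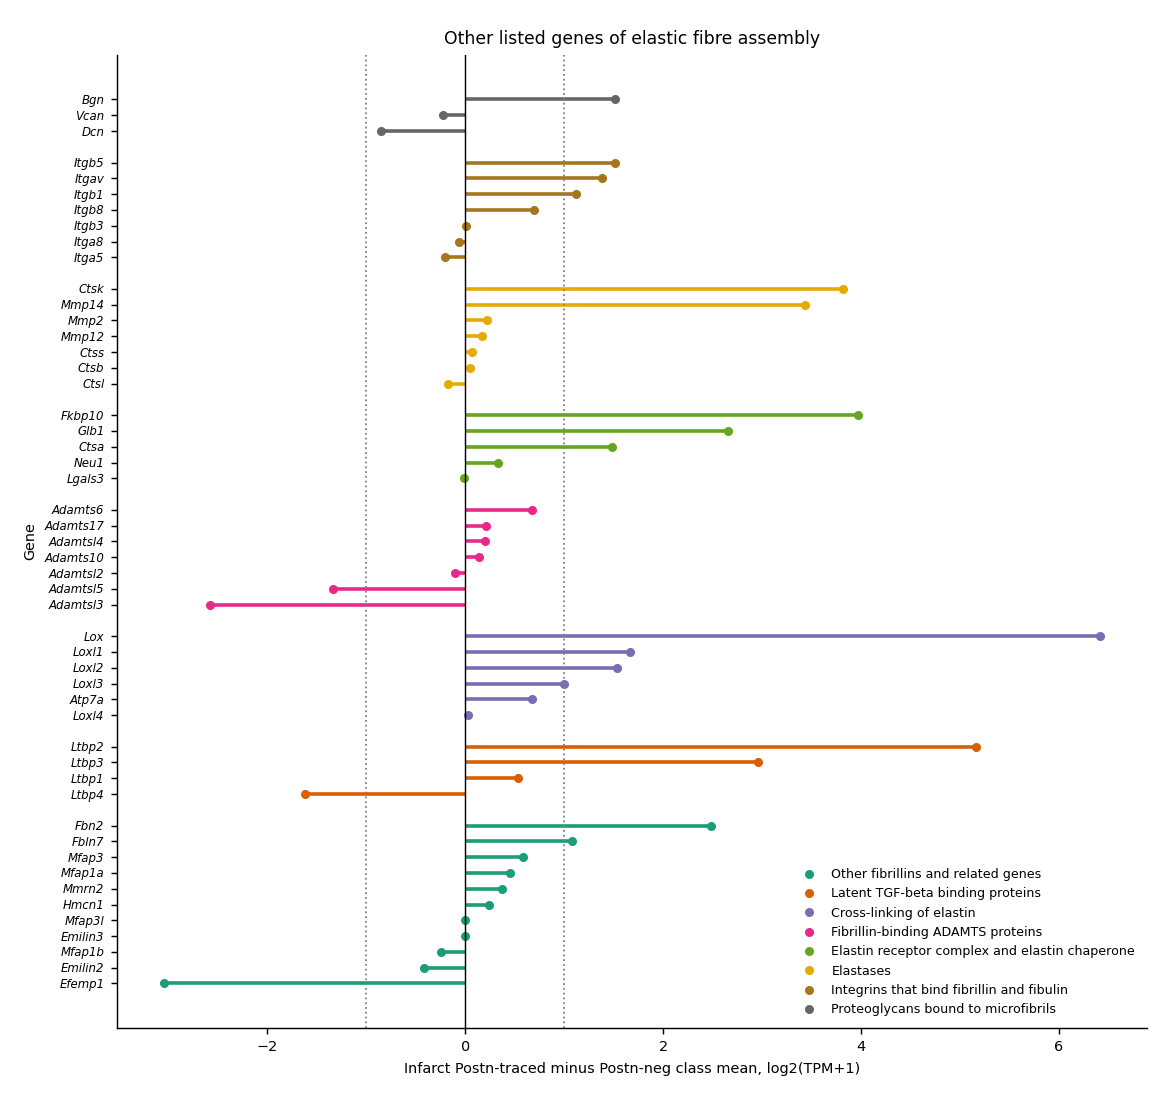
Difference of class means in log2(TPM+1) between Postn-traced and Postn-negative infarct cells (horizontal axis) for the 50 listed genes in the table (vertical axis), coloured by list, with dotted lines at 1 log2 unit in each direction. Lox and Ltbp2 lie farthest to the right, at 6.41 and 5.16, and Efemp1 farthest to the left.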

How the data were processed

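Single cells were captured on the Fluidigm C1 system and amplified with SMARTer chemistry, and Nextera libraries were sequenced. Per the submitters' processing notes the reads were handled with Bowtie 1.0.0 and eXpress 1.5.1 on mm10. The authors deposited 1 table of log2 values of TPM + 1 for 17171 genes in 185 cells. Its title names FPKM, but after the logarithm was undone each cell summed to between 999256 and 1000000, so the values were taken as TPM. TPM keeps no read number. The methods state an average depth over cells, and that of each single cell is unknown. Another 3 columns of the table, which match no cell of the labels, were not used.

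Cells were grouped by the labels into 9 classes of 1 sample each, and 7 pairs of classes were compared by the difference of class means of the deposited log2 values, with the SD between cells, using Python 3.11.15, NumPy 2.4.6, pandas 2.3.3 and SciPy 1.17.1. Figures were drawn with Matplotlib 3.10.9. A gene was detected above 5 TPM, and shares have exact 95% Clopper-Pearson intervals. Scripts were tested on simulated data. Named were all 10 members, for each the 3 genes with the highest class-centred Pearson correlation over 178 cells (Postn-positive cells were centred within capture, the 7 cells in groups of under 4 were left out, 3 of them Postn-positive cells of Nov11, and those of Fbln1 are not reported here), and listed pathway genes more than 1 log2 unit apart between Postn-traced and Postn-negative infarct cells. The members and lists were chosen with earlier results of these data known. The 6 Jul29 Postn-positive cells, Postn itself and the printed promoters were singled out after values were seen. Alternatives were other class summaries, pseudocounts, centring, thresholds and sets of cells, and a value was called moved beyond 0.5 log2 units, a tolerance chosen after the data were seen because cells give no replicate spread. Leaving out the 6 cells with at least 3 markers of another cell type was added after the data were seen. Positions and promoter windows came from RefSeq for GRCm38.p6.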

Additional observations from a re-analysis of the deposited data

How the results depend on the processing

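Each class mean was recomputed with other choices, and a median difference was counted as moved when it shifted by more than 0.5 log2 units, a count of genes when it changed by more than 1.5 times. Of 650 recomputed differences of single members, 467 stayed within 0.5 log2 units, 179 moved further and 4 differences over 1 log2 unit turned in sign. With TPM averaged before the logarithm, the median difference over the members was 0.94 for Postn-traced against Postn-negative infarct cells, 1.34 for infarct against uninjured Tcf21-traced cells, 1.12 for infarct against resident Postn-negative cells and 0.53 for untraced scar against Tcf21-traced cells. Under that choice 3 members were higher in resident Tcf21-traced than Postn-negative cells, 0 in Postn-positive than Tcf21-traced cells of Nov4 and 0 lower in scar cells, where Mfap5 and Emilin1 turned to 0.15 and 0.73.

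With the median over cells, the median differences in the same 4 comparisons were 2.51, 3.46, 0.00 and -0.31, and 0.00 among resident cells, where 3 members were higher. In Nov4 1 member was higher. Fbln5 turned to 0.00176 in the Tcf21-traced comparison and Mfap2 to -1.08 among resident cells. A pseudocount of 0.1 gave 2.27 and 2.98 in the first comparisons, and one of 5 gave 1.63 in the Tcf21-traced comparison, 3 higher members for infarct against resident Postn-negative cells and 1 in Nov4. With cells centred on their detected genes, the median difference was 2.11 for Postn-traced against Postn-negative and -1.70 for scar against Tcf21-traced cells. The centres themselves differed by -0.52, -0.45, -0.26 and 0.84 log2 units in the first, the Tcf21-traced, the Nov4 and the scar comparison, and by less than 0.1 in the other 3.

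At a threshold of 2 log2 units, 2 members were higher in infarct than resident Postn-negative cells, 1 in resident Tcf21-traced than Postn-negative cells and 0 in Nov4, and 0 were lower in scar cells. Without the cells with few genes, the scar comparison had a median of -0.0756 and 1 lower member. Leaving out 1 cell at a time gave from 3 to 5 higher members for infarct against resident Postn-negative cells and from 1 to 2 in Nov4. Leaving out the 6 cells with markers of another cell type, a choice added after the data were seen, gave 3 and 1 in the same comparisons. Of the lower members of the Tcf21-traced comparison, 0 were left on the mean of TPM. The members were detected in 71.1% of all cell and gene pairs above 5 TPM, 75.5% above 1 TPM and 77.6% above 0. The cause of these shifts was not tested.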
